A study of Mus musculus with 6 samples.

Results

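The 38 genes described here are commonly used to mark microglia and macrophages and were chosen by name from 24015 gene symbols in the count files of the arcuate nucleus (ARC) of adult female mice. They were divided by known role into 6 classes, namely 11 homeostatic microglial genes, 5 complement and complement receptor genes, 8 phagocytic, Fc receptor and lysosomal genes, 7 general myeloid genes, 3 macrophage genes and 4 major histocompatibility complex (MHC) class II genes. All 38 were found under their symbols, and all 38 were among the 15236 genes that passed the filter on low counts. The study compared 3 control females (Esr1fl/fl) with 3 conditional knockout females (Esr1fl/fl;Nkx2-1-Cre), called mutants here, to ask how loss of estrogen receptor alpha (Esr1) alters gene expression in the ARC, a nucleus at the base of the hypothalamus. Both genotypes carried the floxed Esr1 allele. The sample labels give both a mixed CD-1, 129P2 and C57BL/6 background, while the study's methods name CD-1 and 129P2 for this line. In mutants the Cre recombinase is driven by Nkx2-1, a transcription factor of the developing ventral hypothalamus. The controls were without Cre, so that presence of the recombinase and loss of Esr1 cannot be told apart by this comparison.

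Microglia are the resident macrophages of the brain. They descend from yolk sac progenitors rather than from the neuroepithelium that gives rise to neurons, astrocytes and oligodendrocytes, and they are maintained by signalling through the receptor CSF1R. At rest they survey their surroundings through receptors such as CX3CR1 and P2RY12, clear debris with the help of complement component C1q and the TREM2-TYROBP receptor complex, and degrade what they engulf with lysosomal cathepsins. Resting microglia carry little MHC class II, the complex that presents peptides to helper T cells, whereas macrophages and dendritic cells at the brain's borders carry more.

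Each library held between 11792440 and 17877137 reads assigned to genes, and 3 reads correspond to between 0.175 and 0.248 CPM, the unit of level used here, in which counts are scaled to a common library size with trimmed mean of M-values (TMM) factors. Esr1 was checked first, with 64.5, 57.5 and 48.5 CPM in control replicates 1 to 3 and 11.8, 9.55 and 7.06 CPM in the mutants, for a log2 fold change of -2.59 ± 0.18 (edgeR's quasi-likelihood test, adjusted p = 0.000884). Here and below a log2 fold change is given ± its standard error. A list of 6 ARC genes summed to between 633 and 719.7 CPM in controls and to between 729 and 1066 CPM in mutants. Control replicate 2 stood apart in the markers of the pars tuberalis, the pituitary tissue beneath the ARC, whose 5 listed genes summed to 6.05 CPM there against 464 to 753 CPM in the other libraries. For some of the 38 genes the value without this or another library is given beside the result. Other genes also moved when 1 library was left out, and not every such value is printed.

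The 38 genes together made up 0.0854%, 0.0784% and 0.0791% of the assigned reads in control replicates 1 to 3 and 0.118%, 0.101% and 0.101% in mutant replicates 1 to 3. Every mutant therefore lay above every control in this share. Their summed level was 819 ± 24.0 CPM in controls and 1056 ± 76.9 CPM in mutants (mean ± SD, n = 3 each). Of this, 322 CPM in controls and 351 CPM in mutants came from Ctsd, a gene that most cells of the brain express. In RNA from whole tissue, a change in the number of cells of a type and a change in RNA per cell cannot be told apart.

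None of the 38 genes passed edgeR's quasi-likelihood test at an adjusted p of 0.05, a threshold passed by 18 of the 15236 genes (0.118%, and 0.0591% in the higher direction). At an unadjusted p under 0.05 there were 16 of the 38, all higher in mutants, whereas 4.84% of all genes tested were higher at this level and 8.85% were so in either direction. DESeq2 called 5 of the 38 at an adjusted p of 0.05, all higher in mutants, namely Cx3cr1, C1qb, Ctss, H2-Aa and H2-Eb1, against 1.27% of all genes in either direction and 0.643% in the higher direction. Limma voom called 0 of the 38, against 0.0919% of all genes and 0.0394% in the higher direction. With the replicate number of the labels as a block, edgeR called 6 of the 38, the same 5 and Cd74, against 0.807% of all genes and 0.453% in the higher direction. The replicate numbers were not taken to pair the samples, so this fit is an alternative only. The direction was shared, with a log2 fold change above 0 for 38 of 38 genes, against 51% of all genes tested. For 33 of the 38 it was above 0 in the fit to all 6 samples and in each of the 6 fits that left out 1 sample, against 29.7% of all genes. All 3 mutants lay above all 3 controls for 17 of the 38 genes, against 7.88% of all genes, and below them for 0. The median log2 fold change was 0.37, or 1.29-fold, beside 0.0036 over all genes tested. With 3 samples a genotype, an exact two-sided permutation test of 1 gene cannot give a p below 0.1.

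**Figure D1:**
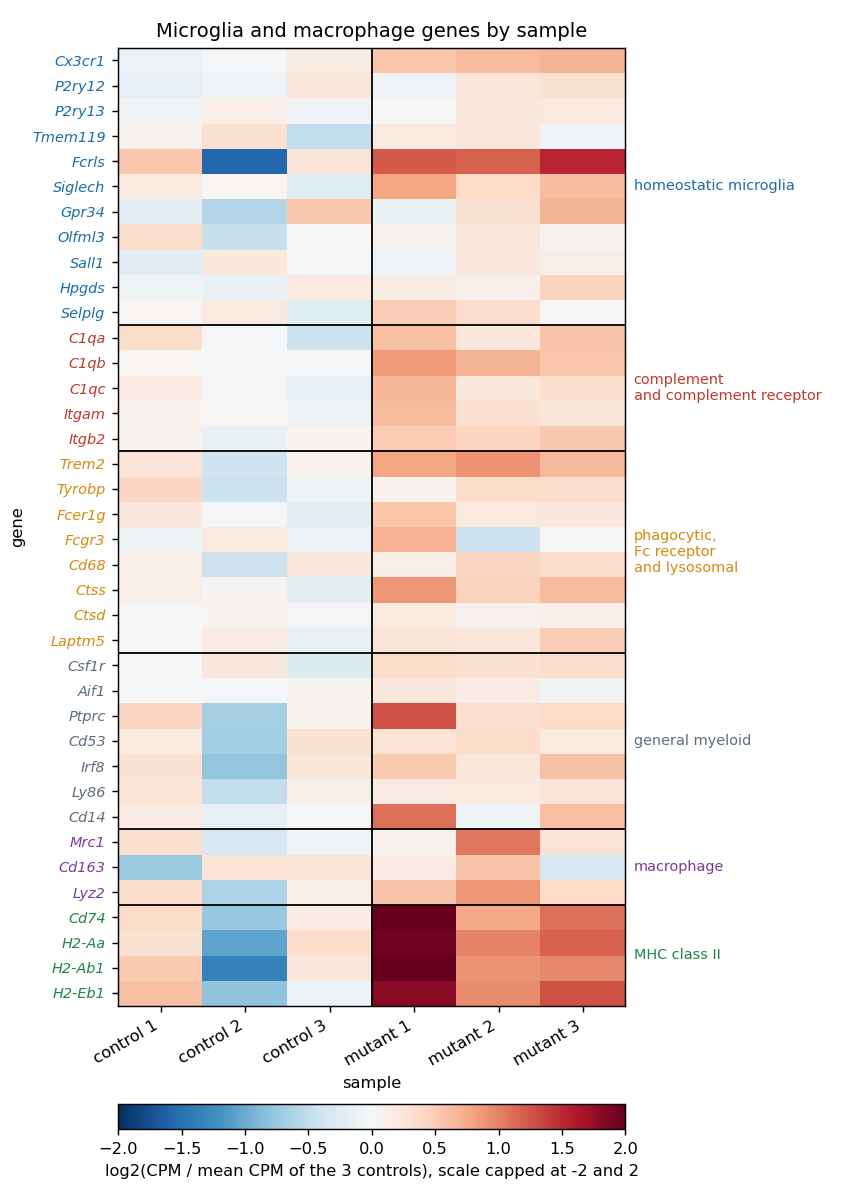
Level of each of the 38 genes (rows, grouped by class) in each of the 6 samples (columns), as the log2 ratio of CPM to the mean CPM of the 3 controls, on a colour scale capped at both ends. The MHC class II rows are darkest red in mutant replicate 1 and blue in control replicate 2, and the complement rows are red in all 3 mutants.

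The classes ranged from a median log2 fold change of 0.25 for homeostatic genes to 1.46 for MHC class II genes. In between lay the phagocytic class at 0.32, the general myeloid class at 0.34, the complement class at 0.46 and the macrophage class at 0.54. The samples that stood out also varied by class. Control replicate 2 was the lowest sample for 19 of the 38 genes, among them 4 of 4 class II and 5 of 7 general myeloid genes but 4 of 11 homeostatic genes. Mutant replicate 1 was the highest for 18 of the 38, including 4 of 4 class II and 4 of 5 complement genes. Mutant replicate 2 was the highest for all 3 macrophage genes, and mutant replicate 3 for 5 of 11 homeostatic genes. A control was the highest sample for 4 of the 38 genes and the lowest for 36. The matching shares over all genes tested are not given, so these counts describe the 38 genes only.

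**Figure D2:**
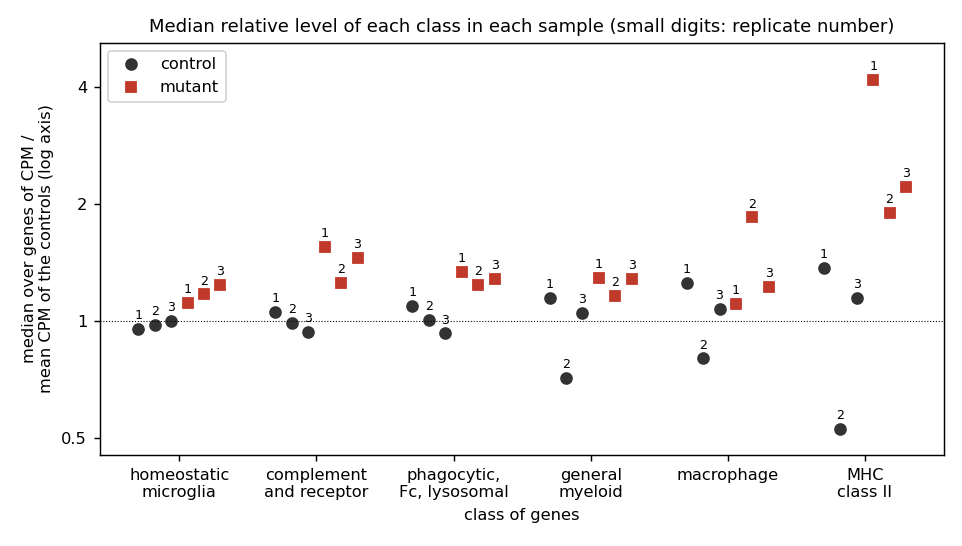
Median over the genes of each class of the ratio of CPM to the mean CPM of the 3 controls (log axis), 1 point per sample, with digits giving the replicate number. Mutants lie above controls in the homeostatic, complement, phagocytic, general myeloid and MHC class II classes, whereas in the macrophage class mutant replicates 1 and 3, at 1.11 and 1.22, lie below control replicate 1 at 1.25.

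Among the homeostatic microglial genes, Cx3cr1 had the smallest adjusted p and P2ry12 the highest level per length. Cx3cr1, the receptor for the neuronal chemokine fractalkine, was at 31.4, 33.3 and 37.7 CPM in control replicates 1 to 3 and at 50.2, 53.0 and 54.8 CPM in mutant replicates 1 to 3. The genotypes did not overlap and each was tight, with 34.2 ± 3.23 CPM in controls against 52.6 ± 2.31 CPM in mutants (mean ± SD, n = 3 each). The log2 fold change was 0.62 ± 0.10, with an adjusted p of 0.0567 by edgeR's quasi-likelihood test and of 0.000306 by DESeq2. Over the fits that each left out 1 sample, this log2 fold change ranged from 0.57 to 0.70.

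P2ry12, the purinergic receptor that steers microglial processes towards released ATP, was at 29.3, 31.1 and 38.5 CPM in controls and at 31.7, 38.5 and 40.8 CPM in mutants. Here the genotypes overlapped, with a log2 fold change of 0.17 ± 0.13 (edgeR, adjusted p = 0.780). The ratio of Cx3cr1 to P2ry12 reads was between 0.980 and 1.07 in controls and between 1.34 and 1.58 in mutants, so within a library these homeostatic genes did not differ between genotypes to the same degree. In controls P2ry12 stood at 13.9 CPM per kilobase of annotated exon and Cx3cr1 at 9.16.

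Fcrls, an Fc receptor-like gene used as a microglial marker, had the largest log2 fold change of the class and the lowest level per length. It was at 2.28, 0.523 and 1.86 CPM in controls and at 3.63, 3.52 and 4.46 CPM in mutants. The genotypes did not overlap, and control replicate 2 lay far below the other controls. Its log2 fold change of 1.33 ± 0.43 (edgeR, adjusted p = 0.384) was 0.90 without this control and up to 1.73 without control replicate 1. Siglech, a sialic acid-binding lectin, was at 9.78, 8.84 and 7.17 CPM in controls and at 14.9, 11.4 and 13.1 CPM in mutants. Again no mutant fell among the controls, with a log2 fold change of 0.61 ± 0.17 (edgeR, adjusted p = 0.286).

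The other homeostatic genes overlapped between genotypes. Sall1, a transcription factor of microglial identity, had the smallest difference, at 16.6, 22.2 and 18.9 CPM in controls and 18.3, 22.4 and 20.9 CPM in mutants, for a log2 fold change of 0.10. The log2 fold change was 0.11 for Tmem119, a membrane protein used to tell microglia from other macrophages, 0.12 for the secreted glycoprotein gene Olfml3, 0.13 for the ADP receptor P2ry13, 0.25 for the prostaglandin D synthase Hpgds, 0.29 for the selectin ligand Selplg and 0.34 for the lysophosphatidylserine receptor Gpr34. Gpr34 was at 0.11 without control replicate 2 and at 0.12 without mutant replicate 3, and Sall1, Tmem119 and Olfml3 turned below 0 when a single control was left out. Adjusted p-values for these 7 overlapping genes lay between 0.668 for Selplg and 0.915 for Tmem119. All 3 controls of the class median lay below all 3 mutants, yet without mutant replicate 3 the median log2 fold change of the class was 0.15 in place of 0.25.

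**Figure D3:**
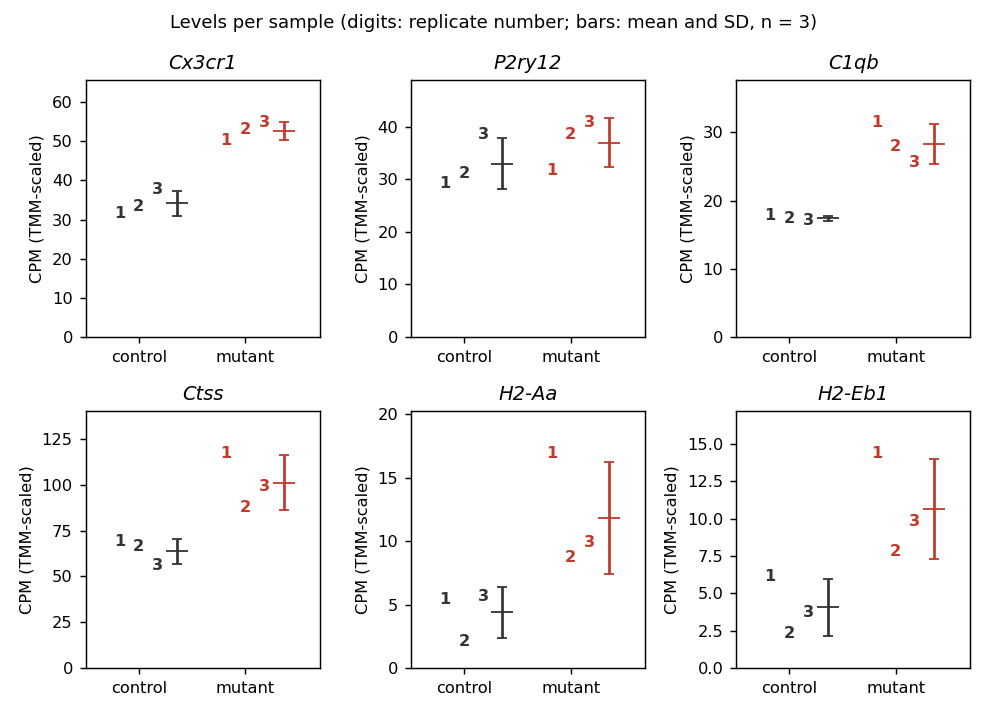
Level in CPM of Cx3cr1, P2ry12, C1qb, Ctss, H2-Aa and H2-Eb1 in every sample, with digits giving the replicate number and bars the mean and SD of 3 samples. The genotypes are separate in every panel except that of P2ry12, where mutant replicate 1 at 31.7 CPM lies below control replicate 3 at 38.5 CPM.

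C1q, the recognition molecule of the classical complement pathway, is made in the brain largely by microglia, and its chains are encoded side by side on chromosome 4. C1qb was at 17.8, 17.3 and 17.1 CPM in controls and at 31.4, 28.0 and 25.6 CPM in mutants. The controls were nearly equal, and the lowest mutant lay well above them. The log2 fold change was 0.70 ± 0.12, with an adjusted p of 0.0589 by edgeR's quasi-likelihood test and of 0.00108 by DESeq2, and it stayed between 0.62 and 0.77 whichever sample was left out. C1qc was at 17.1, 15.1 and 13.8 CPM in controls and at 24.4, 17.9 and 19.5 CPM in mutants, also without overlap, for a log2 fold change of 0.42 ± 0.15. C1qa was counted at only 1.61, 1.22 and 0.932 CPM in controls and 1.90, 1.45 and 1.87 CPM in mutants, and it overlapped between genotypes with a log2 fold change of 0.46 ± 0.35.

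Within the complex, the ratio of C1qb to C1qc reads was between 1.04 and 1.24 in controls and between 1.29 and 1.56 in mutants. The low count of C1qa was present in every library, at between 0.0517 and 0.0902 of C1qb, and per kilobase of annotated exon it stood at 1.21 CPM in controls against 16.0 for C1qb and 7.95 for C1qc. Complement receptor 3, through which microglia take up complement-tagged material, is formed by the integrin chains ITGAM and ITGB2. Itgam was at 51.7, 49.5 and 45.7 CPM in controls and at 75.7, 61.4 and 58.0 CPM in mutants, for a log2 fold change of 0.41 ± 0.11 (edgeR, adjusted p = 0.275). Itgb2 was at 4.62, 4.01 and 4.59 CPM in controls and at 6.27, 5.97 and 6.40 CPM in mutants, for a log2 fold change of 0.49 ± 0.18 (edgeR, adjusted p = 0.456). Both chains were therefore higher in every mutant than in any control. This made 4 of the 5 genes of this class without overlap, where 7.88% of all genes tested had every mutant above every control. The median log2 fold change of the class was 0.46, and between 0.36 and 0.53 with 1 sample left out.

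In the phagocytic, Fc receptor and lysosomal class, Ctss, the gene of cathepsin S, a protease that microglia use to degrade proteins and to trim the invariant chain of MHC class II, was the clearest. It was at 69.0, 66.2 and 55.7 CPM in controls and at 117, 87.6 and 99.1 CPM in mutants. No mutant fell among the controls, and the log2 fold change was 0.67 ± 0.12, with an adjusted p of 0.0706 by edgeR's quasi-likelihood test and of 0.000628 by DESeq2. Ctsd, the gene of cathepsin D, is expressed by most cells of the brain and had the highest level of all 38 genes, at 128 CPM per kilobase of annotated exon in controls beside 46.9 for Ctss. It was at 319, 335 and 313 CPM in controls and at 367, 341 and 344 CPM in mutants, without overlap but with a log2 fold change of only 0.12 ± 0.076 (edgeR, adjusted p = 0.687). The ratio of Ctss to Ctsd reads lay between 0.178 and 0.216 in controls and between 0.257 and 0.320 in mutants.

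Trem2, the lipid-sensing receptor that triggers phagocytosis, was at 2.28, 1.45 and 2.01 CPM in controls and at 3.30, 3.58 and 3.00 CPM in mutants, for a log2 fold change of 0.79 ± 0.28 (edgeR, adjusted p = 0.417). Its signalling partner Tyrobp overlapped between genotypes, at 5.56, 3.08 and 3.87 CPM in controls and 4.37, 5.40 and 5.33 CPM in mutants, for a log2 fold change of 0.28 ± 0.25, which was 0.095 without control replicate 2. Laptm5, a lysosomal membrane protein gene of blood-derived cells, was at 25.2, 28.6 and 23.2 CPM in controls and at 30.8, 30.2 and 36.2 CPM in mutants, for a log2 fold change of 0.33 ± 0.12 (edgeR, adjusted p = 0.421). So Trem2 and Laptm5 were separate between genotypes and Tyrobp was not. The log2 fold change was 0.33 for Fcer1g, the shared Fc receptor gamma chain, 0.31 for Cd68, a lysosomal glycoprotein of macrophages, and 0.15 for the IgG receptor Fcgr3, all 3 with overlap. Cd68 was at 0.14 without control replicate 2 and Fcer1g at 0.21 without mutant replicate 1. In Fcgr3 mutant replicate 1 at 6.27 CPM stood above and mutant replicate 2 at 2.89 CPM below all controls, which were between 3.59 and 4.42 CPM, and without mutant replicate 1 its log2 fold change was -0.20. The median log2 fold change of the class was 0.32, and 0.20 without both control replicate 2 and mutant replicate 1.

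Of the general myeloid genes, Csf1r alone was without overlap. Csf1r, the receptor on which microglial survival depends, was at 54.3, 62.7 and 44.5 CPM in controls and at 69.3, 66.2 and 68.9 CPM in mutants. The mutants were close to each other, whereas control replicate 2 approached them, and the log2 fold change was 0.34 ± 0.12 (edgeR, adjusted p = 0.417). Of the genes of its ligands, Csf1 had a log2 fold change of -0.060 ± 0.091 and Il34 one of 0.14 ± 0.22, with an adjusted p of 0.901 for each.

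Ptprc, the gene of the leukocyte antigen CD45, had the largest log2 fold change of the general myeloid class, 0.74 ± 0.33 (edgeR, adjusted p = 0.571). It was at 6.63, 3.14 and 5.24 CPM in controls and at 12.1, 6.35 and 6.59 CPM in mutants, and its log2 fold change was 0.38 without mutant replicate 1, 0.48 without control replicate 2 and 0.12 without both. Irf8, a transcription factor required for the myeloid lineage, was at 3.95, 1.86 and 3.80 CPM in controls and at 4.62, 3.71 and 4.80 CPM in mutants, with control replicate 2 again the lowest and a log2 fold change of 0.45 ± 0.30 that was 0.17 without it. Aif1, the gene of the microglial stain IBA1, had the smallest difference, at 5.63, 5.64 and 5.95 CPM in controls and 6.68, 6.41 and 5.46 CPM in mutants, for a log2 fold change of 0.11 ± 0.18, or 0.049 without mutant replicate 1. The tetraspanin gene Cd53, the lipopolysaccharide co-receptor Cd14 and Ly86, which encodes the partner of a Toll-like receptor homologue, had log2 fold changes of 0.28, 0.61 and 0.21, all with overlap. Without control replicate 2 that of Cd53 was 0.029 and that of Ly86 was 0.011, and without mutant replicate 1 that of Cd14 was 0.31. The median log2 fold change of the class was 0.34. Without control replicate 2 it was 0.17, and without both this control and mutant replicate 1 it was 0.12.

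**Figure D4:**
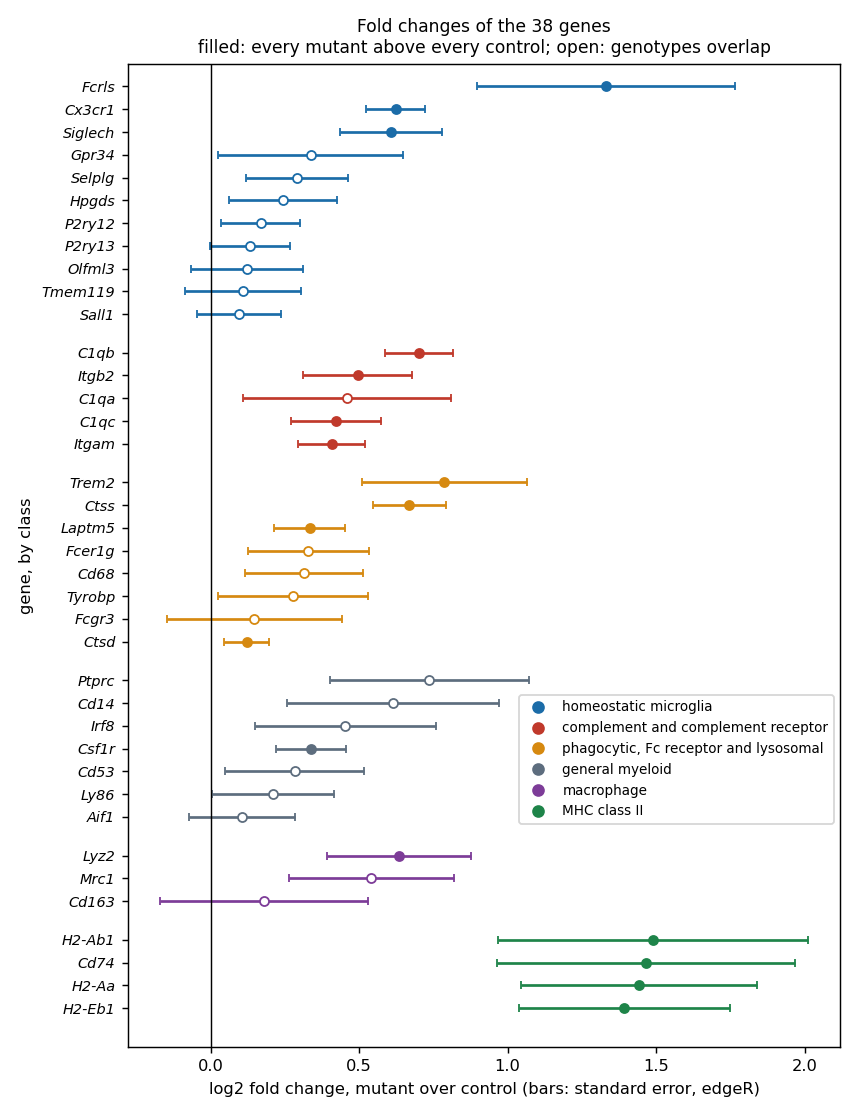
Log2 fold change of mutants over controls for each of the 38 genes by class, with bars giving the standard error of the edgeR fit. Filled points mark the 17 genes whose mutants all lie above all controls, and every point lies to the right of 0, with the 4 MHC class II genes between 1.39 and 1.49.

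The macrophage class holds genes that are more abundant in macrophages of the meninges and vessels than in microglia. Mrc1, the mannose receptor gene, was at 8.17, 5.24 and 6.24 CPM in controls and at 6.85, 13.6 and 7.99 CPM in mutants. Cd163, the haemoglobin scavenger receptor gene, was at 1.47, 2.97 and 2.94 CPM in controls and at 2.72, 3.64 and 2.00 CPM in mutants. Lyz2, the lysozyme gene, was at 12.9, 6.57 and 10.8 CPM in controls and at 14.9, 18.7 and 13.3 CPM in mutants. Mutant replicate 2 was the highest sample for all 3, and Lyz2 alone was without overlap. The log2 fold changes were 0.54 ± 0.28 for Mrc1, 0.18 ± 0.35 for Cd163 and 0.63 ± 0.24 for Lyz2, with adjusted p-values of 0.617, 0.922 and 0.479 by edgeR's quasi-likelihood test. Without mutant replicate 2 the median log2 fold change of the class was 0.18 in place of 0.54, and without control replicate 2 it was 0.40. Mrc1 was at 0.18 without mutant replicate 2, Lyz2 at 0.40 without control replicate 2, and Cd163 turned to -0.082 without control replicate 1 and to -0.070 without mutant replicate 2. Lyz2 has a near-identical neighbour, Lyz1, and how reads shared by both were assigned was not examined. Of a further list of 8 border-associated macrophage genes, 6 were tested and 0 passed by edgeR, DESeq2 or voom. At an unadjusted p under 0.05 by edgeR there were 0. Of the 6, 5 had a log2 fold change above 0, beside 51% of all genes, and the median was 0.87. The list summed to between 6.69 and 11.9 CPM in controls and between 10.1 and 19.0 CPM in mutants, again highest in mutant replicate 2.

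The MHC class II genes had the largest differences. H2-Aa, H2-Ab1 and H2-Eb1 encode the alpha and beta chains of the mouse class II molecules, and Cd74 encodes the invariant chain that occupies their groove until it is cut away in the lysosome. Class II promoters in general carry an X box and a Y box, bound by the factors that recruit the transactivator CIITA, and myeloid promoters often carry purine-rich sites of the factor PU.1. The 250 bases before the RefSeq start of H2-Aa and H2-Eb1 are shown because they hold both class II boxes, and those of C1qb and Ctss because these genes had the smallest adjusted p of their classes and hold the PU.1 letters. Positions are on NCBIM37 (mm9) at chr17:34424769-34425018, minus strand, for H2-Aa, chr17:34442562-34442811, plus strand, for H2-Eb1, chr4:136442116-136442365, minus strand, for C1qb and chr3:95330458-95330707, plus strand, for Ctss. Each is written 5′ to 3′ in the direction of its gene. Capitals mark the X box core (CTNGCAAC) and then the Y box (CTGATTGG) in the H2 genes, and the letters GAGGAA in C1qb and Ctss.
H2-Aa: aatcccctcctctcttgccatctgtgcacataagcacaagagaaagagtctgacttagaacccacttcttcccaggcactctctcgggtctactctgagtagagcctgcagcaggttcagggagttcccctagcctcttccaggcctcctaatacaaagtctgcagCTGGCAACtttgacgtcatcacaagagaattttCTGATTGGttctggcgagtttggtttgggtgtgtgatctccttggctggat
H2-Eb1: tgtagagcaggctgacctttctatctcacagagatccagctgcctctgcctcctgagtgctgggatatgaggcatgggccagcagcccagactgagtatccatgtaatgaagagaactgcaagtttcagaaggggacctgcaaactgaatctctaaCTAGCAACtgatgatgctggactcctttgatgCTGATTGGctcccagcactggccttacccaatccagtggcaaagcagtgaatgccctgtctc
C1qb: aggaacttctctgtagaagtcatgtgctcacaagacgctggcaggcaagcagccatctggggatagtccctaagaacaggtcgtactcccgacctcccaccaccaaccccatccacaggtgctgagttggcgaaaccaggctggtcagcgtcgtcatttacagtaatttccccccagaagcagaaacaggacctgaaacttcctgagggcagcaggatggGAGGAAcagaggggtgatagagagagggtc
Ctss: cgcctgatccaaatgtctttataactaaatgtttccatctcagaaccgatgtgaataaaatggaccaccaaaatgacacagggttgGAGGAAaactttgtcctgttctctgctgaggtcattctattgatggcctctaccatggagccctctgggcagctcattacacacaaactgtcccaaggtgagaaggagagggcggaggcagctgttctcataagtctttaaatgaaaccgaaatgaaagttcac
In H2-Aa the Y box ended 44 bases and the X box core 77 bases before the start, and in H2-Eb1 they ended 55 and 87 bases before it. The same 250 bases of 27025 genes were searched on both strands, and a gene was counted if any of its listed promoters held the letters. The Y box letters were in 4.43% of genes, the X box core in 3.30% and both in 0.170%, which is 46 genes. Of the 38 genes, 28 had a promoter in the RefSeq table (GRCm38.p6). Both boxes were in H2-Aa and H2-Eb1 alone among these 28, whereas the Y box without the X core was in Irf8 and the X core without the Y box in Cd163. A member not named here, such as H2-Ab1 or Cd74, either lacked these letters or had no promoter to search. The letters GAGGAA were in 25.9% of all genes so counted and in 15 of the 28. The motifs do not overlap each other, and their letters were chosen with these promoters in view.

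H2-Aa was at 5.43, 2.09 and 5.59 CPM in controls and at 16.9, 8.73 and 9.93 CPM in mutants, for a log2 fold change of 1.44 ± 0.40. Its adjusted p was 0.316 by edgeR's quasi-likelihood test and 0.00849 by DESeq2. H2-Eb1 was at 6.10, 2.33 and 3.73 CPM in controls and at 14.4, 7.79 and 9.79 CPM in mutants, for a log2 fold change of 1.39 ± 0.36, with adjusted p-values of 0.259 and 0.00871 in the same order. Neither gene had a mutant among the controls.

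H2-Ab1 was at 3.02, 0.814 and 2.44 CPM in controls and at 9.65, 3.90 and 4.06 CPM in mutants, for a log2 fold change of 1.49 ± 0.52 (adjusted p = 0.442 with edgeR and 0.125 with DESeq2). Cd74 was at 24.8, 11.3 and 21.6 CPM in controls and at 85.9, 32.4 and 41.4 CPM in mutants, for a log2 fold change of 1.47 ± 0.50 (adjusted p = 0.502 and 0.245 in the same order). All 4 genes had the same extremes, with control replicate 2 the lowest sample and mutant replicate 1 the highest. For all 4 every mutant was above every control, beside 7.88% of all genes tested. The ratio of Cd74 reads to the summed H2 reads varied little, from 1.59 to 2.17 over the 6 samples, with no separation of the genotypes.

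The 4 class II genes summed to 39.3, 16.6 and 33.4 CPM in controls and to 127, 52.8 and 65.1 CPM in mutants. Relative to the summed homeostatic genes this was 0.250, 0.103 and 0.202 in controls and 0.664, 0.258 and 0.317 in mutants. Mutant replicate 2 thus nearly met control replicate 1 on this ratio, and mutant replicate 1 was far above the others. The median log2 fold change of the class was 1.46, and it was 1.02 without mutant replicate 1 and 1.10 without control replicate 2. Without this control the log2 fold changes were 1.19 for Cd74, 1.09 for H2-Aa, 1.08 for H2-Ab1 and 1.10 for H2-Eb1, and without the mutant they were 0.94, 1.10, 0.94 and 1.12 in the same order. Without both the class median was 0.71, which is still above the medians of the other 5 classes from the same samples, 0.12 to 0.43. H2-Aa and H2-Ab1 overlap in the annotation on opposite strands, and the H2 genes are polymorphic in mice of mixed background while reads were aligned to 1 reference. The alleles carried by each mouse were not examined.

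Control replicate 2, the lowest in all 4 class II genes, was also the control with the pars tuberalis markers nearly absent, at 6.05 CPM, while control replicates 1 and 3 were at 753 and 494 CPM. The mutants were at 583, 525 and 464 CPM in this list. Mutant replicates 1 and 2 lay between control replicates 1 and 3, and mutant replicate 3 lay below control replicates 1 and 3. The part of this tissue in the class II difference was not tested. Of 5 genes of the class II machinery outside the set, 3 were tested and 0 passed in edgeR, DESeq2 or voom, with 1 at an unadjusted p under 0.05. Ciita, the transactivator gene, was at 0.737, 1.45 and 1.79 CPM in controls and at 4.87, 1.45 and 1.33 CPM in mutants, so that mutant replicate 1 alone stood above the controls. Cd83, which stabilises class II at the surface, had a log2 fold change of 0.31 and H2-DMa, a peptide-exchange chain gene, one of 0.20.

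**Figure D5:**
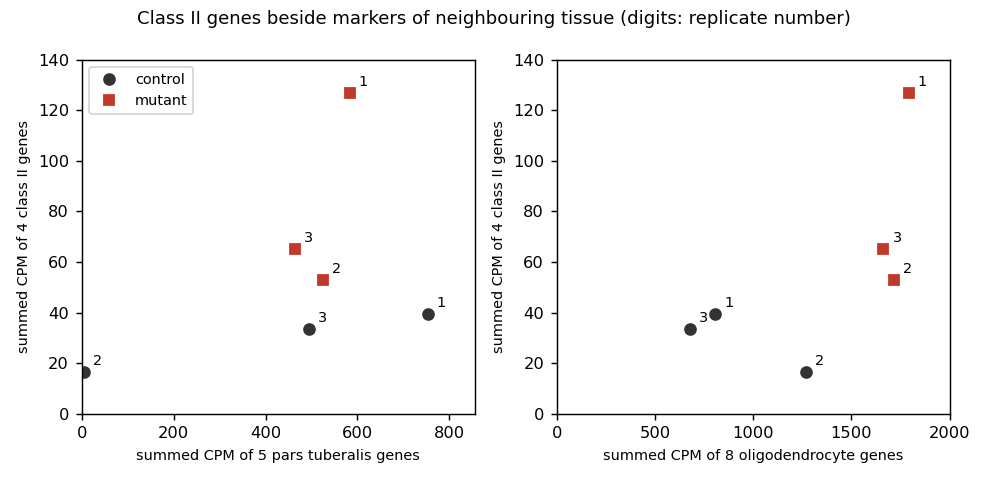
Summed CPM of the 4 MHC class II genes against the summed CPM of 5 pars tuberalis genes (left) and of 8 oligodendrocyte genes (right), 1 point per sample with its replicate number. Control replicate 2 has the lowest class II level and almost no pars tuberalis signal, and the 3 mutants, between 1663 and 1793 CPM, have more oligodendrocyte signal than the controls.

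The wider microglial network was read from 8 further lists, of ligands, transcription factors, other microglial genes, phagocytic receptors and bridging proteins, complement, disease-associated microglial genes, cytokines and class II machinery. Of their 59 genes 48 were tested, and 0 passed edgeR's quasi-likelihood test. At an unadjusted p under 0.05 there were 13 of the 48, all higher in mutants, where 4.84% of all genes were higher, and DESeq2 called 4, all higher, beside 0.643% of all genes, and voom 0. The log2 fold change was above 0 for 44 of the 48, beside 51% of all genes, with a median of 0.32. The ligand genes Cd200, Cd47 and Cx3cl1 (fractalkine), the most abundant of their list, had log2 fold changes of -0.035, 0.073 and 0.035, beside the 0.62 of the fractalkine receptor gene Cx3cr1.

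The abundant transcription factor genes Mef2c and Bhlhe41, which neurons express as well, had log2 fold changes of 0.10 and 0.085. The ectonucleotidase gene Entpd1 had a log2 fold change of 0.12 and Vsir, an immune checkpoint gene, one of 0.33. Of the phagocytic receptors, the integrin gene Itgav had a log2 fold change of 0.23, the receptor tyrosine kinase gene Axl 0.16 and its ligand gene Gas6 0.067. Complement genes made largely by other brain cells varied between samples, with log2 fold changes of 0.36 ± 0.40 for C4b and 0.20 ± 0.19 for Serping1. These 2 do not stand for the complement list, whose median log2 fold change was 0.78. All 8 of its genes lay above 0, beside 51% of all genes, and 0 passed edgeR's adjusted threshold. For 3 of the 8 every mutant was above every control, beside 7.88% of all genes. Apoe, Cd9 and Cd63, the most abundant of the disease-associated list and not particular to microglia, had log2 fold changes of 0.20, 0.27 and 0.0067. These do not stand for their list, whose median log2 fold change was 1.03. All 8 of its tested genes lay above 0, beside 51% of all genes, and 0 passed edgeR's adjusted threshold.

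Markers of other cells moved with genotype in places. All 8 oligodendrocyte genes, beside 7.88% of all genes tested, were higher in every mutant than in every control. They summed to 807, 1269 and 676 CPM in controls and to 1793, 1716 and 1663 CPM in mutants. One of them, Cldn11, a tight junction gene of myelin, rose with a log2 fold change of 1.27 ± 0.17 (edgeR, adjusted p = 0.0313). Its values were 7.91, 11.0 and 7.39 CPM in controls and 18.8, 22.2 and 22.6 CPM in mutants. Mbp and Cnp, among the most abundant of the list, had log2 fold changes of 0.90 and 0.59. The part of white matter in the microglial differences was not tested.

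Of 7 immediate early genes, which respond within minutes to activity or handling, Dusp1 rose with a log2 fold change of 1.03 ± 0.14 (edgeR, adjusted p = 0.0313), and the list summed to between 116 and 291 CPM in controls and between 286 and 463 CPM in mutants. Dusp1 was at 23.5, 17.1 and 21.4 CPM in controls and at 37.7, 40.5 and 48.5 CPM in mutants. All mutants lay above all controls for 5 of the 7 genes, beside 7.88% of all genes tested. Npas4 and Fos, named after their values were seen, had log2 fold changes of 2.05 ± 0.32 (adjusted p = 0.0650 with edgeR and 5.37e-08 with DESeq2) and 1.69 ± 0.51 (adjusted p = 0.418 with edgeR and 0.156 with DESeq2). The part of activity or handling in the results above was not tested. The astrocyte, endothelial and mural, neuronal, and tanycyte and ependymal lists gave 0 genes past edgeR's adjusted threshold, 0 at an unadjusted p under 0.05 and 0 by DESeq2 or voom. Their sums overlapped between genotypes, as did those of 5 genes of the neighbouring ventromedial nucleus. That list summed to 73.2, 156 and 111 CPM in controls and to 71.9, 177 and 201 CPM in mutants. Replicate 1 of each genotype was thus the lowest. Its gene Fezf1 was at 1.14, 32.7 and 24.2 CPM in controls and 9.90, 47.2 and 52.3 CPM in mutants. Tac1 alone of the list had a log2 fold change below 0, at -0.55 ± 0.17 (edgeR, adjusted p = 0.355). Its values were 50.9, 60.0 and 40.1 CPM in controls and 37.0, 28.1 and 38.6 CPM in mutants, without overlap. The part of dissection in the class II and other results above was not tested.

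Genes of circulating blood cells were mostly near the detection floor, with exceptions. Of 5 erythrocyte genes, the globin genes Hbb-b1, Hbb-b2, Hba-a1 and Hba-a2 were listed at 0 in all 6 samples. How globin reads were assigned was not examined, so these counts of 0 give no measure of blood content. Alas2, a haem synthesis gene, was between 3.60 and 5.91 CPM with a log2 fold change of 0.0073. Lymphocyte genes summed to between 0.756 and 3.16 CPM in controls and between 1.57 and 2.53 CPM in mutants over 7 genes. The monocyte and neutrophil list summed to between 0.582 and 2.01 CPM in controls and between 3.33 and 3.71 CPM in mutants over the 6 of its 7 genes found in the files. Most of this was from Ccr2, the chemokine receptor gene of inflammatory monocytes, at 0.670, 0.407 and 1.15 CPM in controls and at 3.14, 3.02 and 2.86 CPM in mutants. The log2 fold change of Ccr2 was 2.03 ± 0.39, with an adjusted p of 0.0808 by edgeR's quasi-likelihood test and of 0.00574 by DESeq2. Of the other monocyte and neutrophil genes, Ly6c2, S100a8, S100a9 and Plac8 were at 0.359 CPM or less in every sample.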

How the data were processed

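Total RNA from microdissected ARC of 3 control and 3 mutant females was amplified and sequenced. The authors aligned reads with TopHat2 (2.1.0) and counted them on genes with HTSeq (0.6), per the submitters' processing notes, which name build mm9, while the study's methods join the names NCBI37 and mm10. The deposited values are raw counts per gene symbol, 1 per sample, and whether counting used strand is not given in the sources used here. Genes were filtered with filterByExpr, scaled with TMM and compared between genotypes with edgeR (4.0.16) in R (4.3.3) by its quasi-likelihood test with robust dispersions, and Benjamini-Hochberg adjustment covered all 15236 genes tested, with a threshold of 0.05. CPM are the counts scaled to a common library size after TMM. DESeq2 (1.42.0) and limma voom (3.58.1), other normalization and filters, the replicate number as a block and leaving out each sample were alternatives. The fits were tested on simulated counts.

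The 38 genes, their classes and the further lists were chosen with earlier results of these data known, so no test was made over a list. Every member is named, and those of each class with the smallest adjusted p, the largest or smallest fold change or the highest or lowest level per length have their value in every sample. Of the further lists, genes past the threshold and up to 3 of highest mean CPM are named, except a few that are not reported here, and any other was chosen after its values were seen. Gene positions and exon lengths are from GENCODE on NCBIM37, and promoters from RefSeq were each matched once to that genome. Adgre1, Vsir and C1s were read under their older symbols Emr1, 4632428N05Rik and C1s1. The samples are separate mice per the series' design text, and no pair of libraries of a genotype agreed within sampling noise (chi-square per degree of freedom 6.91 to 21.5). The floor of 3 counts covers counting error only.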

Additional observations from a re-analysis of the deposited data

How the results depend on the processing

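Of 493 member values recomputed under the alternatives, 470 kept their direction and side of the threshold, 15 passed the threshold only under an alternative and 8 turned direction. The members past the threshold, 0 by edgeR, numbered 5 with DESeq2, 3 with genes of at least 1 count in any sample (Cx3cr1, C1qb and Ctss), 6 with the replicate block (Cx3cr1, C1qb, Ctss, Cd74, H2-Aa and H2-Eb1), 1 (Cx3cr1) without control replicate 2 and mutant replicate 1 together, a choice made after seeing the data, and 0 in every fit that left out 1 sample. Over all genes, 18 passed by edgeR, 191 with DESeq2, 106 with at least 1 count, 123 with the replicate block, 121 without both samples and between 7 (without mutant replicate 3; 9 without mutant replicate 2) and 46 (without control replicate 2) with 1 sample left out. The replicate numbers were not taken to pair the samples, since deviations of same-numbered samples correlated at 0.28, 0.047 and -0.0026 and not every sample correlated best with its own number. Median log2 fold changes with 1 sample left out ranged from 0.37 to 0.48 for the 38 genes, 0.15 to 0.29 for homeostatic, 0.36 to 0.53 for complement, 0.26 to 0.42 for phagocytic, 0.17 to 0.46 for general myeloid, 0.18 to 0.73 for macrophage and 1.02 to 1.75 for class II genes. Without both samples they were 0.20 for phagocytic and 0.71 for class II genes. The genes without overlap, 17 of 38, numbered between 18 and 24 with 1 sample left out, all higher in mutants. Over all genes tested, 11.2% to 14.3% were higher in the same comparisons. Leaving out a sample can only keep or raise this count, so it is no check of the 17. The log2 fold changes that turned were those of Sall1 (-0.00096) and Cd163 (-0.082) without control replicate 1, Cd163 (-0.070) without mutant replicate 2, Tmem119 (-0.083) without control replicate 3, Olfml3 without control replicate 2 (-0.061) and without both samples (-0.035), and Fcgr3 without mutant replicate 1 (-0.20) and without both (-0.095). With 1 sample left out, Sall1 ranged up to 0.21, Cd163 to 0.37, Tmem119 to 0.30, Olfml3 to 0.33 and Fcgr3 to 0.37. The cause was not tested. Depth limits the genes near the floor, such as C1qa at 13 to 24 counts in controls.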

Other observations

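Some genes of the further lists stood out by values and were chosen after these were seen. Spp1, the osteopontin gene, was at 5.43, 1.63 and 4.23 CPM in controls and at 15.2, 10.7 and 9.33 CPM in mutants, for a log2 fold change of 1.65 ± 0.39, with an adjusted p of 0.233 by edgeR's quasi-likelihood test and of 0.00127 by DESeq2. Lpl, the lipoprotein lipase gene, was at 12.3, 6.57 and 9.61 CPM in controls and at 18.6, 22.7 and 18.2 CPM in mutants, for a log2 fold change of 1.07 ± 0.21 (adjusted p = 0.103 with edgeR and 0.00111 with DESeq2). Both belong to the disease-associated microglial list, of which Itgax, Gpnmb and Clec7a were at 2.45 CPM or less in every sample, and Spp1 and Lpl are also made by neurons. C3ar1, the receptor gene for complement fragment C3a, was at 7.24, 4.89 and 7.10 CPM in controls and at 10.5, 11.8 and 11.5 CPM in mutants, for a log2 fold change of 0.82 ± 0.19 (adjusted p = 0.163 with edgeR and 0.0395 with DESeq2). Tgfb2, a growth factor gene, was at 56.8, 50.8 and 75.3 CPM in controls and at 79.9, 94.5 and 112 CPM in mutants, with an adjusted p of 0.264 by edgeR's quasi-likelihood test and of 0.0135 by DESeq2. In each of these genes the mutants lay above the controls. Irf5, an interferon regulatory factor gene of macrophages, had all mutants below all controls, at 1.74, 1.45 and 1.86 CPM in controls and 1.24, 0.440 and 1.07 CPM in mutants, for a log2 fold change of -0.90 ± 0.42 (edgeR, adjusted p = 0.578). The inflammatory cytokine genes Tnf and Il6 were at 0.200 CPM or less in every sample, and Il1b at 1.49 CPM or less.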
